A study of Saccharomyces cerevisiae with 27 samples.

Results

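H3K79me3, the trimethylated form of lysine 79 of histone H3, was compared between arp5 deletion cells and wild-type BY4741 cells of the budding yeast Saccharomyces cerevisiae. The values were log2 ratios of the H3K79me3 immunoprecipitate over input DNA in the same 50 bp windows of both strains, and they were averaged over each gene. Of 6664 nuclear genes listed, 6487 had at least 4 windows and are described here. ARP5 itself was set aside, because it is deleted in 1 of the strains, and 176 genes fell under the window minimum. The gene models held no untranslated regions, since 96.7% of their lengths were multiples of 3, so length below means coding length with any intron.

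The series contains 27 samples, 8 of them ChIP, and asked how INO80, a chromatin remodelling complex, and the silencing protein Sir3 shape silent and active chromatin. Arp5 is an actin-related subunit of INO80. The comparison rests on 4 libraries: the H3K79me3 precipitate and the input of arp5, and the same pair from BY4741. The arp5 cells, named arp5 by title, are taken here as an arp5 deletion in the BY4741 background, although their genotype field reads WT. The BY4741 cells are wild type. Both strains grew exponentially in YPD, a rich glucose medium, and chromatin of both was crosslinked and sonicated, with no drug or arrest named. Each group had 1 library per strain, so no difference below has a replicate check, an SD or a p-value, and the read depth behind the ratios is unknown.

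H3K79 is methylated by the enzyme Dot1, which acts more strongly on nucleosomes whose histone H2B carries ubiquitin, placed there by Rad6 and Bre1 during transcription. The mark covers the bodies of many genes and is scarce at promoters and in silent chromatin. Sir3 binds nucleosomes better when H3K79 is unmethylated, which links the mark to the borders of silent domains near telomeres and the silent mating-type cassettes.

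The strains were told apart at the ARP5 gene on chromosome XIV, where the precipitates compared directly, without input, in the authors' deposited table averaged -7.76 (log2, arp5 over BY4741) over 46 windows. The input ratio of arp5 over BY4741, which the deposited tables give indirectly, was not even along the genome. It stood at 0.512-fold over 66 genes of chromosome III beyond MATALPHA1, at 1.16-fold over chromosome XI and at 1.09-fold over chromosome XII, relative to the median gene. In RNA, all 5 measured genes that a cells express were at least 2-fold lower in arp5, and so were 9 of 12 genes expressed in haploid cells of both mating types. Over the 66 genes on chromosome III the median H3K79me3 difference over input was -0.04. Without chromosomes I, III, XI and XII the ratio of the SDs given below was 0.656 as before, and of the range-matched medians of the ribosomal, COS and haploid-specific genes only the last moved by over 0.1. The part of mating-type RNA in the differences was not tested.

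The H3K79me3 values of arp5 spanned a narrower range than those of BY4741. The level of a gene had an SD over genes of 0.61 in arp5 and 0.93 in BY4741 (log2), a ratio of 0.656, and over single windows the ratio was 0.686. Whether the narrower range arose in the cells, in the precipitation or in the scaling of the table cannot be told apart with 1 library per strain. In the lowest of 10 equal classes of genes by BY4741 level the median was -1.13 in arp5 and -1.88 in BY4741. In the highest class the median was 0.71 in arp5 and 1.01 in BY4741. The strains met in the sixth class, at 0.20 in both. Classing by BY4741, the value that is subtracted, fixes part of this pattern. Genes were therefore also classed by their arp5 level, an alternative chosen after the data were seen, where that choice works the other way: the lowest class then had a median of -1.17 in arp5 and -1.83 in BY4741, and the highest 0.73 in arp5 and 0.99 in BY4741. Over all genes the medians were close, at 0.15 in arp5 and 0.10 in BY4741, and the order of the genes was much the same, with a Pearson r of 0.938 across genes, given as a description because genes of 1 library pair are not independent. H3K4me3, a mark of gene starts measured against the same input libraries, had nearly equal spreads, with an SD ratio of 0.98.

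**Figure D1:**
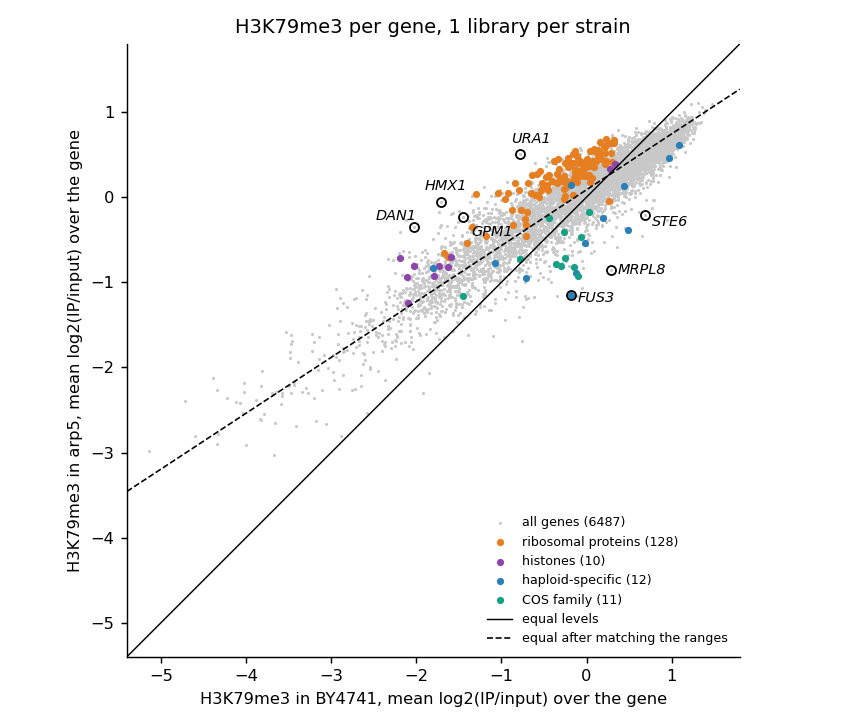
Each grey point is 1 of 6487 genes, with the mean log2(IP/input) in arp5 on the vertical axis and in BY4741 on the horizontal axis, and 4 gene lists are coloured. The cloud follows the dashed line, on which arp5 has the same place within its own narrower range as BY4741, and not the solid line of equal levels.

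Windows that the authors list as enriched for H3K79me3 in BY4741 numbered 82711, and their median was 0.68 in arp5 and 0.94 in BY4741. In 86.9% of them arp5 was below BY4741, a share that the choice of windows by BY4741 alone partly sets. The other 158723 windows had a median of -0.45 in arp5 and -0.71 in BY4741. On the values as deposited, 1128 genes were higher in arp5 by at least 0.5, which is 17.4% of all genes, and 97 were lower by at least 0.5, or 1.50%. Of the 1128, 94.6% lay in the 3 lowest classes of BY4741 level. Since the BY4741 level is part of the difference, this share is a description of the counts and no support for a change.

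**Figure D2:**
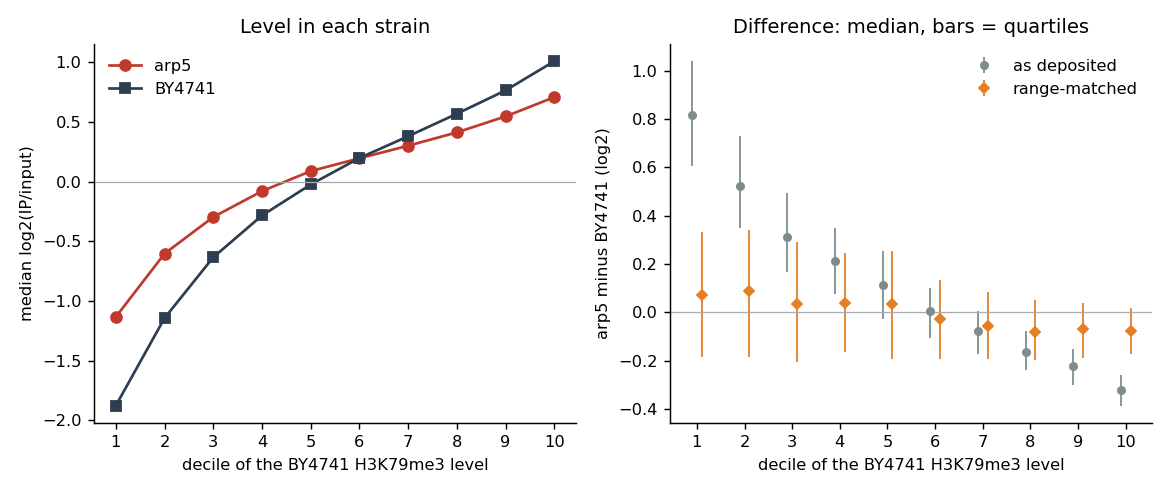
Left, median log2(IP/input) in arp5 (red circles) and BY4741 (dark squares) for 10 equal classes of genes ordered by BY4741 level. Right, the median difference of arp5 minus BY4741 with bars from the lower to the upper quartile of genes: the difference as deposited falls from 0.82 in the lowest class to -0.32 in the highest, and the range-matched difference stays between 0.09 and -0.08.

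To account for the narrower range, each strain's levels were centred on their median over genes and the arp5 levels were multiplied by 1.52, the ratio of the SDs. The result, called the range-matched difference, asks whether a gene changed its place within the range. By it 381 genes were higher in arp5 by at least 0.5, or 5.87%, and 340 were lower, or 5.24%. These counts depend on how the range is handled: when each gene was set against genes of the same BY4741 level they were 79 and 127, and against genes of the same mean level of both strains 185 and 186. Gene RPL26B, at 0.50, was the last counted as higher, and PEX30, also at 0.50 after rounding but under the limit, was the first left out.

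Genes for the proteins of the cytoplasmic ribosome held the highest median range-matched difference of the 25 gene lists examined. The list had 132 genes, of which 128 had enough windows. Their median H3K79me3 was 0.28 in arp5 and -0.14 in BY4741, a difference of 0.43 as deposited and 0.47 range-matched. By the range-matched difference, 60 of the 128 were counted as higher and 0 as lower, or 46.9% against 5.87% of all genes. All but 2 of the 128 were above 0 on the range-matched scale. Many of these genes are A and B copies alike in sequence, so reads may be shared and the 128 values are not all separate measurements. Set against genes of the same BY4741 level, 12 of the 128 were higher and 0 lower with a median of 0.31, against 1.22% of all genes counted as higher.

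Genes of both ribosomal subunits were alike in this. Of 74 large-subunit genes, 36 were counted as higher and the range-matched median was 0.47. Of 54 small-subunit genes, 24 were counted as higher and the median was 0.46. Genes with and without an intron had close medians: the 88 with an intron had a median of 0.46 and the 40 without had 0.52, while the 185 other genes with an intron had -0.04. At the top of the list, RPS22A, for a protein of the small subunit, stood at 0.04 in arp5 and -1.29 in BY4741. RPS31, which encodes a ubiquitin fusion, stood at 0.05 in arp5 and -1.04 in BY4741. RPL34A, for a large-subunit protein, stood at 0.17 in arp5 and -0.84 in BY4741. In each of these 3 genes arp5 lay near or above its own median gene, while BY4741 lay far below its own.

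The RNA of the ribosomal protein genes differed in the other direction. The median log2 ratio of FPKM in arp5 over BY4741 was -0.44 for the list and 0.00 for all genes, and 112 of the 128 were below 0, although only 3 were lower by 2-fold or more. Their H3K4me3 had a median of 2.20 in arp5 and 1.99 in BY4741 (log2 over input), and 110 of the 128 were higher in arp5. Over all genes the H3K4me3 medians were -0.36 in arp5 and -0.14 in BY4741. Since both marks were divided by the same input libraries, the values are given side by side only.

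Other strongly expressed genes showed the same direction. Outside the ribosomal list, 180 genes had at least 1000 FPKM in BY4741. Their median H3K79me3 was -0.23 in arp5 and -0.80 in BY4741, a range-matched difference of 0.26, with 48 counted as higher and 4 as lower. Across classes of RNA level, the top of 5 equal classes had a median of 0.11 in arp5 and -0.10 in BY4741. Of its genes, 163 were counted as higher by the range-matched difference, or 12.6%, and 50 as lower, or 3.85%. The 4 lower classes each had between 3.78% and 4.55% counted as higher.

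Histone genes had little H3K79me3 in either strain and more in arp5. The median over 10 genes was -0.81 in arp5 and -1.76 in BY4741, and the range-matched median was 0.30 with 3 counted as higher, against 5.87% of all genes. In the lowest class of BY4741 level 14.5% of genes were counted as higher. Set against genes of the same BY4741 level, the histone median was 0.16. HTA1, for histone H2A, stood at -0.72 in arp5 and -2.19 in BY4741, with a range-matched difference of 0.96. HHF1, for histone H4, stood at -0.81 in arp5 and -2.03 in BY4741. HHO1 and HTZ1, for linker histone H1 and the variant H2A.Z, lay at a higher level and hardly differed, at 0.33 and 0.39 in arp5 against 0.27 and 0.33 in BY4741. The RNA of all 10 was lower in arp5, by a median of -0.47.

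Genes of glycolysis and fermentation had a median of -0.42 in arp5 and -1.12 in BY4741. Of 21 genes, 5 were counted as higher by the range-matched difference, or 23.8% against 5.87% of all genes, and 0 as lower. In the second lowest class of BY4741 level, whose median was -1.14 in BY4741, 15.1% of genes were counted as higher. The range-matched median of the list was 0.27, and 0.13 against genes of the same BY4741 level. GPM1, for phosphoglycerate mutase, stood at -0.24 in arp5 and -1.46 in BY4741. TPI1, for triose phosphate isomerase, stood at -0.22 in arp5 and -1.28 in BY4741. PDC1, the main pyruvate decarboxylase, stood at -0.53 in arp5 and -1.60 in BY4741, and TDH3 and CDC19, for glyceraldehyde-3-phosphate dehydrogenase and pyruvate kinase, completed the 5. Isozymes used on other carbon sources lay at the other end, with ADH2 at -0.06 in arp5 and 0.14 in BY4741, although alcohol dehydrogenase genes are alike in sequence and reads may be shared. Of 25 genes of the general stress response, 7 were counted as higher, or 28.0% against 5.87% of all genes, and 0 as lower. GSY2, for glycogen synthase, stood at 0.04 in arp5 and -0.87 in BY4741. TSL1, for a subunit of trehalose synthase, stood at -0.03 in arp5 and -0.83 in BY4741. GLC3 and TPS1, also of glycogen and trehalose synthesis, were among the 7.

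**Figure D3:**
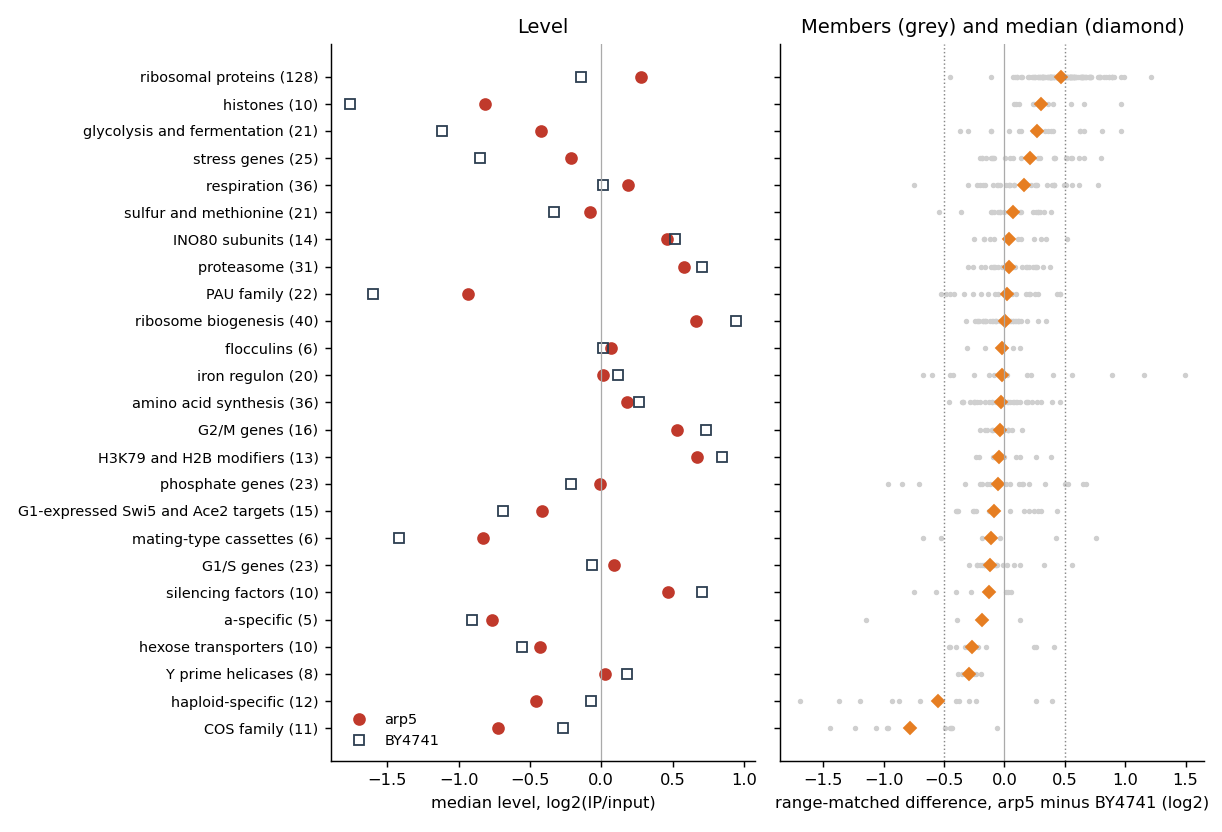
Left, the median H3K79me3 of each of 25 gene lists in arp5 (red circles) and BY4741 (open squares), with the number of genes in brackets. Right, the range-matched difference of each member (grey) and the list median (orange diamond), with dotted lines at -0.5 and 0.5: ribosomal protein genes stand at the top with a median of 0.47, and haploid-specific and COS genes at the bottom with -0.55 and -0.78.

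Haploid-specific genes, most of them of the mating response, were lower in arp5. The median over 12 genes was -0.46 in arp5 and -0.07 in BY4741, and the range-matched median was -0.55, with 6 counted as lower and 0 as higher, against 5.24% of all genes counted as lower. Without chromosomes I, III, XI and XII the median was -0.40. FUS3, the mating MAP kinase, stood at -1.15 in arp5 and -0.18 in BY4741, with a range-matched difference of -1.70. The gene lies on chromosome II at 192451 to 193512 of sacCer3.

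The 3 subunits of the pheromone-coupled G protein differed in size of change. STE18, the gamma subunit, stood at -0.89 in arp5 and -0.12 in BY4741, and it overlaps another listed gene, so its windows are shared. GPA1, the alpha subunit, stood at -0.54 in arp5 and -0.02 in BY4741. STE4, the beta subunit, stood at 0.13 in arp5 and 0.44 in BY4741, short of the limit at -0.38 range-matched. AXL1, a protease that matures a-factor, NEJ1, a factor of DNA end joining, and FAR1, which arrests the cycle in pheromone, made up the 6. HO and DIG2 were the exceptions above 0: HO, the mating-type endonuclease gene, stood at -0.84 in arp5 and -1.80 in BY4741, while its RNA was 5.61 FPKM in arp5 and 26.4 FPKM in BY4741.

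Among 5 measured a-specific genes only STE6, the a-factor exporter, was counted as lower. It stood at -0.21 in arp5 and 0.69 in BY4741, a range-matched difference of -1.15. STE2, the alpha-factor receptor, stood at -0.14 in arp5 and -0.47 in BY4741, a range-matched difference of 0.13, although its RNA was 13.5 FPKM in arp5 and 431.8 FPKM in BY4741. BAR1, the alpha-factor protease, stood at -0.77 in arp5 and -0.91 in BY4741, a range-matched difference of -0.39, with RNA of 6.72 FPKM in arp5 and 133.8 FPKM in BY4741. MFA1 and MFA2, for a-factor, were too short to be measured. On the range-matched scale 4 of the 5 lay below 0, with a median of -0.19, and 1 passed the limit.

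The windows across these genes show where the levels parted. In FUS3, 21 of 21 windows were lower in arp5. In STE6 all 78 windows were lower, and in AXL1 71 of 72. Upstream the order turned round: at 175 bp before FUS3, where BY4741 dipped to -3.21, arp5 stood at -1.16. In HMX1, for haem oxygenase, 20 of 20 windows were higher in arp5, in URA1 19 of 19 and in DAN1 18 of 18. In URA1 the dip upstream of the gene reached -1.78 in arp5 and -4.21 in BY4741.

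**Figure D4:**
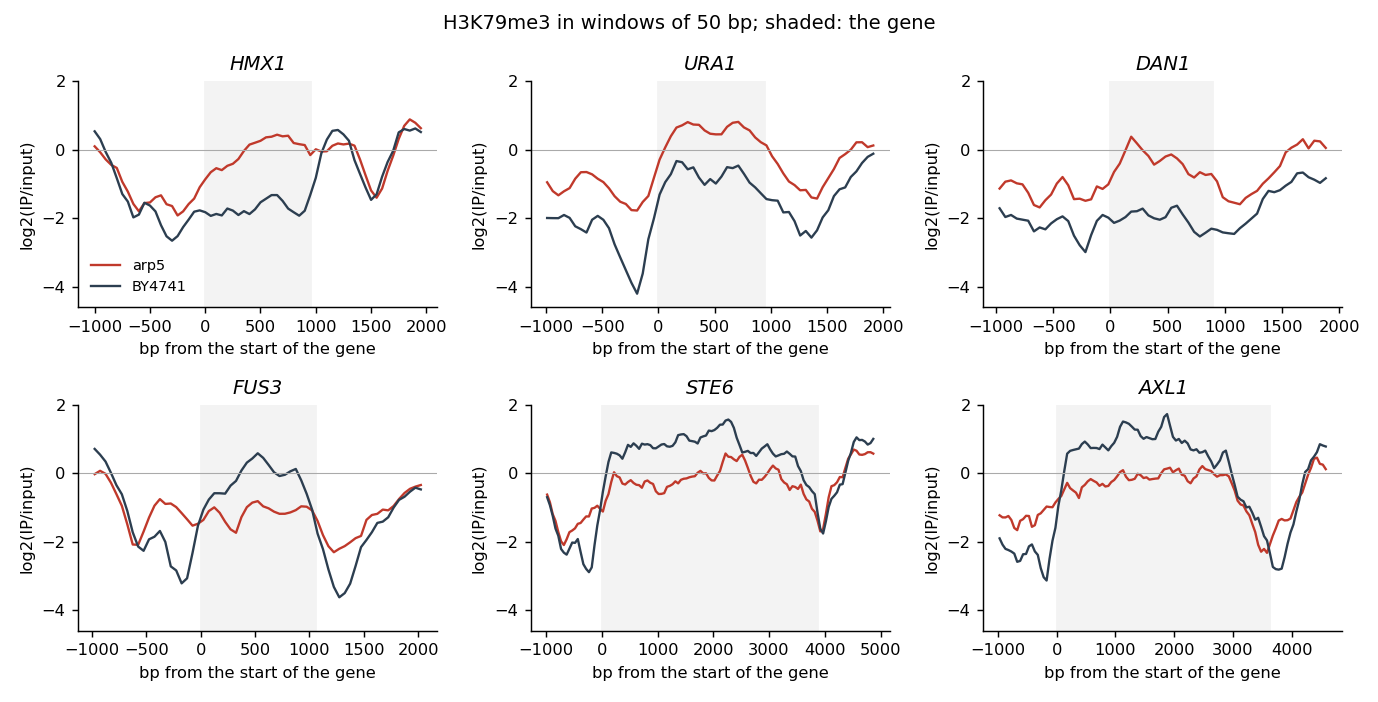
H3K79me3 as log2(IP/input) in windows of 50 bp across 3 genes that were higher in arp5 (top) and 3 that were lower (bottom), against distance from the start of the gene, with arp5 in red and BY4741 in dark blue. The gene bodies (shaded) lie apart over nearly their whole length, and the dips just upstream of them are shallower in arp5. Downstream of HMX1 and STE6 the dips are about as deep in both strains.

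The COS family, membrane proteins encoded near chromosome ends, had the lowest median range-matched difference of the lists. Over 11 genes the median level was -0.72 in arp5 and -0.27 in BY4741, and the range-matched median was -0.78, with 6 counted as lower and 0 as higher. Those 6 were 54.5%, against 5.24% of all genes counted as lower. COS7 stood at -0.93 in arp5 and -0.10 in BY4741. COS5 stood at -0.82 in arp5 and -0.15 in BY4741. RNA was lower in all 11, and by at least 2-fold in 5 of the 10 with enough RNA. H3K4me3 was lower in all 11 as well, with medians of -1.92 in arp5 and -0.84 in BY4741. The genes are close copies of one another, so reads may be shared among them and the 11 values are not separate measurements.

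At chromosome ends as a whole H3K79me3 was not uniformly higher or lower. Of 85 genes within 5 kb of an end, the median was -0.02 in arp5 and 0.13 in BY4741, with 3 counted as higher and 8 as lower by the range-matched difference, or 3.53% and 9.41%, against 5.87% and 5.24% of all genes. The deposited median difference there was -0.02 over all 85 and 0.33 without genes that overlap others. Between 5 and 10 kb the median of 73 genes was -0.78 in arp5 and -1.13 in BY4741, with 7 counted as higher and 12 as lower, or 9.59% and 16.4%. Range-matched, the medians of these zones were -0.16 and -0.05, and beyond 50 kb, over 5714 genes, it was -0.02. Single genes within 20 kb went both ways: CHA1, for a serine and threonine deaminase, stood at -0.25 in arp5 and -1.26 in BY4741, and AIF1, for an apoptosis-inducing factor, at -0.36 in arp5 and 0.46 in BY4741. The PAU genes, a cell-wall family largely near the ends, had a deposited median difference of 0.66, of which 0.02 was left after range matching.

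The mating-type cassettes were low in both strains and, as deposited, less so in arp5. The silent HML locus gave -1.35 in arp5 and -1.66 in BY4741 for HMLALPHA1, and -0.41 in arp5 and -1.18 in BY4741 for HMLALPHA2. The silent HMR locus gave -1.39 in arp5 and -1.57 in BY4741 for HMRA1, and -0.72 in arp5 and -1.04 in BY4741 for HMRA2. MATALPHA1 stood at -0.89 in arp5 and -2.25 in BY4741. All 6 measured genes were higher in arp5 as deposited, and after range matching 2 were above 0 and 4 below. The cassettes share sequence with MAT, and the reference carries the alpha allele where BY4741 is an a strain, so these values cannot be assigned to 1 locus. Their RNA differed in both directions. HMLALPHA1 and HMLALPHA2 had 3.49 and 1.19 FPKM in arp5 and were listed at 0 in BY4741, and MATALPHA1 had 7.14 FPKM in arp5 and 0.21 FPKM in BY4741. HMRA1 had 86.8 FPKM in arp5 and 329.6 FPKM in BY4741, HMRA2 94.5 FPKM in arp5 and 196.6 FPKM in BY4741, and MATALPHA2 58.4 FPKM in arp5 and 101.9 FPKM in BY4741.

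The genes of the H3K79 and H2B modifying enzymes are given for their own interest, since in so short a list few would be counted at the shares of all genes, 5.87% higher and 5.24% lower. Of 13, 0 were counted as higher or lower, and the range-matched differences ran between -0.23 for UBP8, which removes ubiquitin from H2B, and 0.38 for RAD6, which places it. DOT1 stood at 0.47 in arp5 and 0.48 in BY4741, and its RNA was 16.8 FPKM in arp5 and 17.9 FPKM in BY4741. BRE1 stood at 0.71 in arp5 and 0.98 in BY4741. None of the 13 differed in RNA by 2-fold. Among 10 silencing factors, SIR2, the histone deacetylase, stood at -0.19 in arp5 and 0.33 in BY4741, and ORC1, of the origin recognition complex, at 0.23 in arp5 and 0.79 in BY4741. These 2 of 10 were counted as lower, against 5.24% of all genes. SIR3 stood at 0.54 in arp5 and 0.63 in BY4741. Of 14 INO80 subunit genes, NHP10 alone was counted, at 0.30 in arp5 and -0.20 in BY4741, a share near that of all genes. No gene of ribosome biogenesis, the proteasome or the G2/M programme was counted, out of 40, 31 and 16.

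In the iron regulon, 4 of 20 were counted as higher and 2 as lower, where all genes had shares of 5.87% and 5.24%. HMX1 stood at -0.05 in arp5 and -1.71 in BY4741, with RNA of 91.3 FPKM in arp5 and 10.5 FPKM in BY4741. TIS11, whose product destabilises mRNAs in iron shortage, stood at -0.05 in arp5 and -1.37 in BY4741. FIT2, a cell-wall mannoprotein, stood at -0.70 in arp5 and -2.08 in BY4741. FIT3, another mannoprotein, stood at -0.06 in arp5 and 0.44 in BY4741 although its RNA was 292.2 FPKM in arp5 and 87.8 FPKM in BY4741. In the phosphate list 4 of 23 were counted as higher and 3 as lower, to be read against the same shares. PHO84, the high-affinity phosphate transporter, stood at -0.23 in arp5 and -1.16 in BY4741. PHO11, a secreted acid phosphatase, stood at -0.68 in arp5 and -0.21 in BY4741, with RNA of 19.3 FPKM in arp5 and 138.1 FPKM in BY4741, and shares most of its sequence with PHO12. Of 36 genes of amino acid synthesis 0 were counted either way by the range-matched difference, while the RNA of 19 was at least 2-fold higher in arp5.

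The highest range-matched differences, among genes of at least 500 bp and 10 windows that lie over 20 kb from an end, began with HMX1 at 1.50. The gene lies on chromosome XII at 552724 to 553677 of sacCer3, minus strand. URA1, for dihydroorotate dehydrogenase, followed at 1.43, with 0.51 in arp5 and -0.78 in BY4741. DAN1, a cell-wall protein of anaerobic growth, was at 1.37, with -0.34 in arp5 and -2.03 in BY4741. The rest of the 10 were PEX21, FLX1, TIS11, TOS8, GLY1, GPX1 and MCR1, between 1.34 and 1.07. PEX21 serves import into peroxisomes and FLX1 carries FAD into mitochondria. RNA was at least 2-fold higher in 4 of the 10, against 5.95% of the genes with RNA counted, and H3K4me3 was higher in 9, against 38.2% of all genes.

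Among the same genes, of at least 500 bp and 10 windows and over 20 kb from an end, the lowest range-matched difference was that of MRPL8, for a protein of the mitochondrial ribosome, at -1.72, with -0.85 in arp5 and 0.28 in BY4741. FUS3 followed, and then RPP1, a subunit of RNase P, at -1.39, with -0.59 in arp5 and 0.36 in BY4741. NDJ1, which tethers telomeres in meiosis, was at -1.23, with -0.75 in arp5 and -0.05 in BY4741. AXL1, STE6, YPR172W, YPR027C, YDL086W and the isomaltase gene IMA5 made up the 10. RNA was at least 2-fold lower in 3 of them, against 3.68% of the genes with RNA counted, and H3K4me3 was lower in 8, where 61.8% of all genes were lower. On the values as deposited the highest of these genes were UTR5, at -2.36 in arp5 and -4.22 in BY4741, and SHR5, whose product helps palmitoylate Ras, at -2.19 in arp5 and -4.03 in BY4741. Both had levels near the bottom of BY4741, and range-matched they stood at 0.49 and 0.56.

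Along the gene the difference as deposited changed sign between body and flanks. Over 4391 genes of at least 750 bp, the middle of the gene had a median of 0.52 in arp5 and 0.68 in BY4741. At 250 bp before the gene the median was -1.20 in arp5 and -1.72 in BY4741. At 150 bp after its end it was -0.93 in arp5 and -1.29 in BY4741. In the first of 15 equal parts of the gene the medians were -0.29 in arp5 and -0.36 in BY4741. As deposited, the rise from flank into body was thus flatter in arp5 at both ends. Range-matched with the factor and medians of the gene averages, the median difference was -0.24 at 250 bp before the gene. It was 0.01 in the middle of the gene and -0.24 at 150 bp after its end. On that scale the flanks were lower in arp5 and the rise was not flatter. Single windows had an SD ratio of 0.686 and medians of 0.07 in arp5 and 0.04 in BY4741. Range matching by those window values was not done, so the lower flanks hold for the scale of the gene averages only.

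Ribosomal protein genes departed from this shape. Their median 225 bp upstream was -2.34 in arp5 and -3.70 in BY4741, a range-matched difference of 0.08 on the scale of the gene averages. Genes in neither this list nor the 180 below had a range-matched median of -0.22 at that place. At 225 bp into the gene the ribosomal median was 0.35 in arp5 and -0.20 in BY4741, a range-matched difference of 0.58, where those other genes had -0.05. Ribosomal protein genes thus stood above those genes at both places, and further above them in the body. The 180 other strongly expressed genes had -0.16 in arp5 and -0.72 in BY4741 at 225 bp into the gene.

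**Figure D5:**
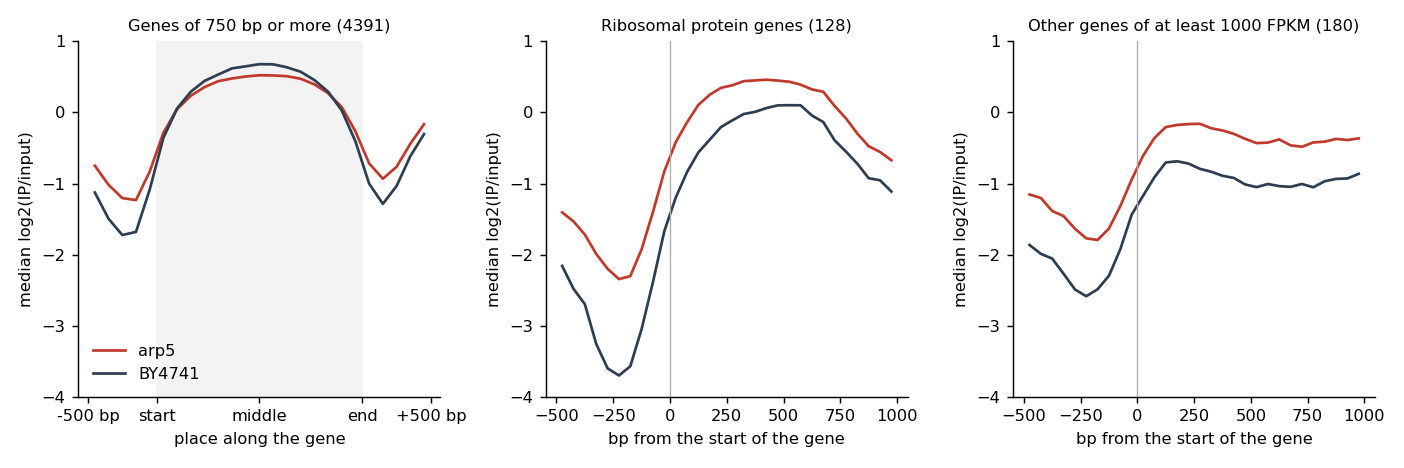
Median log2(IP/input) in arp5 (red) and BY4741 (dark blue) along 4391 genes with bodies scaled to 15 equal parts (left), and in steps of 50 bp from the start of 128 ribosomal protein genes (middle) and of 180 other genes of at least 1000 FPKM in BY4741 (right). In the left panel arp5 lies below BY4741 in the middle of the body and above it in the flanks, while in the other panels it lies above throughout.

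Gene length went with the deposited difference. The shortest of 5 equal classes of genes had a median of -0.55 in arp5 and -0.93 in BY4741, and the longest 0.47 in arp5 and 0.67 in BY4741. Range-matched, these classes had medians of -0.02 and -0.08. Short genes hold few windows and share them with their flanks, and with at least 10 windows required the deposited count of higher genes was 626 in place of 1128.

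RNA and H3K79me3 differed in the same direction in part of the genes. Of 6169 genes with at least 5 FPKM in either strain, 227 had RNA at least 2-fold lower in arp5, and 54 of them, or 23.8%, were counted as lower in range-matched H3K79me3, against 4.81% of the 6169. These 54 were 18.2% of the 297 genes with lower H3K79me3. Of 367 genes with RNA at least 2-fold higher, 40, or 10.9%, were counted as higher in H3K79me3, against 5.87% of the 6169, and these were 11.05% of the 362 genes with higher H3K79me3. The RNA-higher genes had a median H3K79me3 of -0.60 in arp5 and -1.26 in BY4741, and the RNA-lower genes -0.29 in arp5 and -0.38 in BY4741. Among RNA-higher genes below the median BY4741 level, 12.9% were counted as higher, close to the 11.2% of genes whose RNA differed by under 2-fold. Above that level 0 of 58 RNA-higher genes were counted as higher. Among RNA-lower genes below it, 25.7% were counted as lower, against 6.01% of genes whose RNA differed by under 2-fold. Above it these shares were 17.9% and 2.44%. Across the 6169 genes Pearson's r between the RNA ratio and the range-matched difference was 0.14, a description over genes that share 1 pair of libraries. RNA values were the authors' FPKM, 1 column per strain.

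Genes lying wholly in windows that the authors list for Arp5, in strain CY1838 and under arrest and release, numbered 718. Their median H3K79me3 was -0.66 in arp5 and -1.29 in BY4741, and the range-matched median was 0.04. Of them 114 were counted as higher and 75 as lower, or 15.9% and 10.4%, against 5.87% and 5.24% of all genes. They were also short, with a median length of 397.5 bp. In the lowest class of BY4741 level 14.5% of genes were counted as higher and 8.47% as lower. The second lowest class had 15.1% and 7.09%. Of 1298 genes in the shortest length class, 128 were counted as higher and 156 as lower. How much of the 15.9% and 10.4% goes with level and length was not tested. The 1014 genes with no window listed for Arp5 had 0.21 in arp5 and 0.19 in BY4741. Their range-matched median was -0.03, with 36 counted as higher and 60 as lower, or 3.55% and 5.92%.

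Unbroken stretches of 1 direction were listed on the values as deposited, with no account of the narrower range. There were 6872 stretches lower by at least 0.5 and 4477 higher by at least 1, and only the longest are given. Windows lower in arp5 by at least 0.5 as deposited made up 9.31% of all nuclear windows, and the longest unbroken stretch of them covered 2650 bp in NMD5, a nuclear import factor, on chromosome X from 669851 to 672500. The mean there was -0.01 in arp5 and 0.96 in BY4741. Stretches in STE6 and AXL1 came next, with 2450 and 2300 bp. Windows higher by at least 1 made up 7.38%, and the longest stretch of them covered 2400 bp around SPR3, a septin of sporulation, on chromosome VII from 608001 to 610400, with a mean of -1.27 in arp5 and -2.84 in BY4741.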

How the data were processed

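The authors deposited H3K79me3 and H3K4me3 values as log2 ratios of precipitate over input in 50 bp windows; per the submitters' processing notes, Bowtie 0.12.9 aligned the reads to sacCer3. Scaling, smoothing, caller and read totals: not given in the sources used here. Per the labels, RNA libraries used a TruSeq v2 kit. The authors' RNA values are deposited FPKM, from TopHat2 2.0.8 and Cuffdiff 2.0.2 per the submitters' processing notes, with 1 column per strain, and they were compared as log2(FPKM + 1). That scale understates changes of low genes.

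Windows were averaged per gene with numpy 2.4.6 and pandas 2.3.3 in Python 3.11.15. A window belonged to a gene when its centre lay within it, and at least 4 such windows were required. Names came from RefSeq (5989 genes matched). A gene was counted at a log2 difference of 0.5. With 1 library per group no test was run, and the averaging and range-matching steps were checked on simulated data. For range matching those data were built with the linear scaling that it undoes. The check therefore covers the computation and not whether such scaling holds in these data. The gene set, lists and rules were chosen with earlier results of these data known. Named genes were ARP5, the cassettes, the 10 highest and 10 lowest range-matched and 5 highest and 5 lowest deposited differences (at least 500 bp and 10 windows, over 20 kb from an end), 5 each way within 20 kb, up to 2 each way per list and all modifier genes; other list members named, RPL26B, PEX30, and the genes at long stretches were chosen after their values were seen. Alternatives covered window statistics, the window minimum, range handling and chromosomes.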

Additional observations from a re-analysis of the deposited data

How the results depend on the processing

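All values rest on 1 library per strain, so no alternative measures culture-to-culture spread. The limit of 0.5 and the SD scaling are choices. Range-matched counts of higher and lower genes were 381 and 340. They were 79 and 127 against the same BY4741 level, 185 and 186 against the same mean level, and 27 and 56 at a limit of 1, and the lower count was 202 with at least 10 windows. Deposited counts of 1128 and 97 became 229 and 5 at a limit of 1 and 626 and 64 with at least 10 windows. The lower count was 179 with window medians and 64 among genes that overlap no other. The ribosomal protein median of 0.47 was 0.31 against the same BY4741 level. The COS median of -0.78 was -0.47 at the same BY4741 level and -0.57 at the same mean level. The haploid-specific median of -0.55 was -0.72 with window medians, -0.39 with at least 10 windows, -0.40 without chromosomes I, III, XI and XII, -0.34 and -0.41 at the same BY4741 and mean level, and -0.40 without overlapping genes. The causes were not tested. The other 36 comparisons of these main results stayed within 0.1 or 1.5 times, the SD ratio among them. Of the comparisons for the remaining results, named genes included, 45 moved and 485 did not. The histone range-matched median of 0.30 was 0.11 with at least 10 windows. The deposited median difference at 5 to 10 kb from an end was 0.37. It was 0.19 with at least 10 windows and 0.555 without overlapping genes. No value past 0.5 changed sign. Of 39 named genes, 31 kept their side of 0.5 at the same BY4741 level, 35 at the same mean level, 36 with quantile matching and 34 with window medians. The overlap setting, the mean-level setting for lists and the settings for named genes were chosen after seeing the data. No paired analysis was possible because each group holds 1 library and no test was run.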

Other observations

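Subtracting the H3K79me3 difference over input from the direct ratio of the precipitates in the authors' deposited table gives the log2 ratio of the input libraries, centred on its median over genes. It lay at least 0.5 from the median in 76 genes, of which 63 were on chromosome III beyond MATALPHA1, 6 on XII, 4 on VIII and 3 elsewhere. The 66 genes beyond MATALPHA1 had a median of -0.97, and the 115 genes of chromosome III before it 0.03. RNA over those 66 genes had a median log2 ratio of -0.83, over chromosome XI 0.38 and over XII 0.41. At YHR054C, beside the repeated metallothionein genes on VIII, the input ratio was 2.89-fold, and at TAR1, within the ribosomal DNA, 0.356-fold.

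Hexose transporters had a range-matched median of -0.27 over 10 genes with 0 counted either way, and Y prime helicase genes -0.29 over 8 near-identical copies. Of 36 respiration genes, 4 were counted as higher, led by COX4 at 0.56 in arp5 and -0.06 in BY4741, and 1 as lower, KGD2 at -0.33 in arp5 and 0.11 in BY4741. These were 11.1% and 2.78%, against 5.87% and 5.24% of all genes.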
